A study of Mus musculus with 6 samples.

Results

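The genes described here encode enzymes that make and break down heme. There were 9 of them: Alas1, Alas2, Alad, Uros, Urod, Cpox and Fech for synthesis, and Hmox1 and Hmox2 for breakdown. They were chosen by name from the 19938 genes with a probe set annotated to a single symbol. Where a gene has several such probe sets, the one with the highest mean over the 6 arrays was to be used, but each of the 9 genes had just 1. The set was drawn up with earlier results of these arrays in view, Hmox1 and Alas2 among them. The differences between genotypes given below are therefore a description of the set and support no statement about the pathway as a whole.

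The neocortex was taken from mouse embryos at E14.5, day 14.5 of gestation, and each embryo's RNA was hybridised to 1 Affymetrix Mouse Gene 1.0 ST array. In the 3 Bcl11a mutants (Bcl11aΔflox/Δflox) both copies of a floxed Bcl11a gene were in the deleted state, and the 3 controls (Bcl11a+/+) were wild type. The sources used here give neither the strain nor the Cre line, and so not the cells that lost the gene. All values are log2 expression values that the authors produced with RMA, a method that corrects background, makes the arrays' distributions alike and combines probes into 1 value per probe set.

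Heme is an iron-bearing ring that carries oxygen in globins and electrons in the respiratory chain. Its synthesis starts in mitochondria with 5-aminolevulinate synthase, which limits the rate and exists as the housekeeping enzyme Alas1 and the red-cell enzyme Alas2. Alad, Uros and Urod act in the cytosol, and Cpox, Ppox and Fech complete the ring and insert iron in mitochondria. Heme oxygenases open the ring to biliverdin, carbon monoxide and iron. Hmox2 is the constitutive form and is abundant in brain. Hmox1 is the inducible form: in many cell types it is held down by the repressor Bach1, which heme releases from DNA, and switched on by Nrf2 (gene Nfe2l2) under oxidant stress. Macrophages that clear red cells are rich in Hmox1.

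The promoters of the 5-aminolevulinate synthase pair are shown because these paralogs differed in these arrays. The windows are from RefSeq on GRCm38.p6 and run 5′ to 3′ on the strand of the gene, from 250 bases before its annotated start to 50 bases after. The Alas2 window is chrX:150547167-150547466 on the plus strand, and its capitals mark TTATCT, the reverse complement of AGATAA, the letters bound by GATA factors, with its first base at position -86 from the start. The Alas1 window is chr9:106247905-106248204 on the minus strand, and its capitals mark CGCATGCG, the core of the palindrome bound by nuclear respiratory factor 1, with its first base at position 31 after the start.
Alas2: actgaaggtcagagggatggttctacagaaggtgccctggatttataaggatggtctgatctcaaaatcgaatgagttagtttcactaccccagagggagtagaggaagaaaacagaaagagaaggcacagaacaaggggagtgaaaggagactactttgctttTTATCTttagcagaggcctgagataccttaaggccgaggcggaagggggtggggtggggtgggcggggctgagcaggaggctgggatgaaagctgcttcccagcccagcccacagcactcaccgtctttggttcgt
Alas1: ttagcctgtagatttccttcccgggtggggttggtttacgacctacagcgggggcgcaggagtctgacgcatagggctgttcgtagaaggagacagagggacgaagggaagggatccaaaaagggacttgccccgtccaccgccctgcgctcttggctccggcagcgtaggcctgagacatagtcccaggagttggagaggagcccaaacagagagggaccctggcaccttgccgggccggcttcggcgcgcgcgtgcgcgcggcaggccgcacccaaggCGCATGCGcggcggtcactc

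Both strands of the 16 windows that RefSeq lists for 10 of the measured heme pathway genes were searched for 5 sets of letters. Hmox1 and Fech were not among these 10 genes, so their promoters were not searched. A gene can have several windows, so counts of windows are given beside the shares of all windows. AGATAA was found in Alas2 and Cpox, in 2 of the 16 windows, and 11.2% of all 32851 promoter windows held it. CGCATGCG was found in Alas1, in both of its overlapping windows, and 1.87% of all windows held it. The antioxidant response core TGACNNNGC was found in Blvra, a biliverdin reductase gene, in 1 of the 16 windows, and 12.4% of all windows held it. The hypoxia response core ACGTG was found in Alad, Urod, Uros, Cpox and Blvrb, in 6 of the 16 windows (19.6% of all windows held it). CACCC, bound by Krüppel-like factors, was found in 7 of the 10 genes, in 9 of the 16 windows (57.5% of all windows held it). Of TGACNNNGC, ACGTG and CACCC, only CACCC or its reverse complement lay in the windows printed above. It was in both of them, in lower case and outside the capitals. A match is only a match of letters in these windows.

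Before the comparison, the targeted gene and the arrays were checked. Bcl11a read 11.41, 11.49 and 11.34 in the mutants, against 12.20, 12.30 and 12.26 in the controls, and passed the threshold (limma adjusted p = 0.00201). The log2 difference was -0.84, with every mutant below every control, so the labelled groups were apart in this gene. Whether its probes lie in the deleted part was not known from the sources used here. The difference therefore does not measure how much of the gene was deleted. The medians of the mutant arrays lay between 7.25 and 7.28 and those of the control arrays between 7.23 and 7.33. Mutant replicate 1 stood apart in Dcn, a connective tissue proteoglycan gene, at 10.49, against 8.32 and 7.27 in the other mutants and 6.58 to 6.62 in the controls. By Xist and Y-linked genes, 1 of the 3 mutants and 2 of the 3 controls were female. Of the 9 genes listed as neocortex markers 7 were measured, and none passed by limma or had an unadjusted p under 0.05. Emx2, Neurod2 and Pax6 differed by -0.15, 0.07 and 0.02.

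Hmox1 was the 1 gene of the 9 that passed the threshold, an adjusted p under 0.05 in a limma fit over all 19938 genes. Over all genes 0.286% were called in either direction and 0.246% as higher in mutants. The call of Hmox1 was known when the set was drawn up, so nothing is read from that count. In the same fit 3 of the 9 genes, Hmox1, Alas2 and Cpox, had mutant arrays that all lay above the controls, and over all genes 7.69% did so and 10.5% did not overlap in either direction. The same 3 genes had an unadjusted p under 0.05 and a positive difference, and over all genes 4.53% did so and 6.05% had such a p in either direction. The median log2 difference of the 9 genes was 0.08, and that of all genes tested was 0.02.

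**Figure D1:**
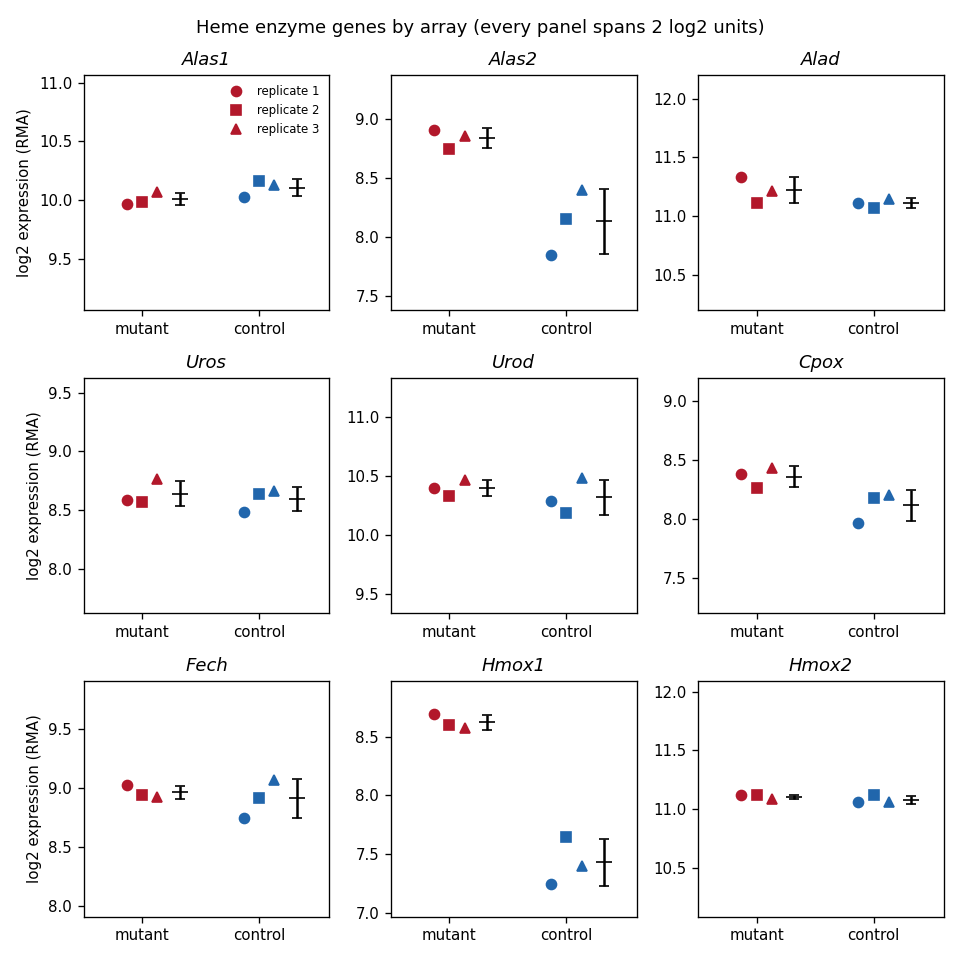
Log2 expression (RMA) of the 9 genes in each array, mutants on the left in red and controls on the right in blue, with the mean and SD of each group (n = 3 arrays) beside the points. Every panel spans 2 log2 units, so distances compare between panels but heights do not. The mutant arrays lie above the control arrays for Alas2, Cpox and Hmox1 and overlap them for the other 6 genes.

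The inducible heme oxygenase was higher in every mutant. Hmox1 (Entrez 15368) read 8.69, 8.60 and 8.57 in the mutants, against 7.25, 7.65 and 7.40 in the controls. The lowest mutant lay well above the highest control, and the 3 mutants lay closer together (SD 0.06) than the 3 controls (SD 0.20). The means were 8.62 ± 0.06 in mutants and 7.43 ± 0.20 in controls (SD, n = 3 arrays each). Hmox1 rose 2.28-fold, a log2 difference of 1.19 ± 0.10 (SE, limma), with a 95% interval of 0.96 to 1.41 and a limma adjusted p of 0.00201. By size of rise it stood at position 16 of the 19938 genes.

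The constitutive heme oxygenase showed no such difference. Hmox2 (Entrez 15369) read 11.12, 11.12 and 11.09 in the mutants, against 11.06, 11.12 and 11.07 in the controls. The groups overlapped, and the arrays lay closer together than for any other gene of the set. The log2 difference of 0.03 had a 95% interval of -0.10 to 0.15 (limma adjusted p = 1). Within each array the log2 ratio of Hmox1 to Hmox2 was -2.43, -2.52 and -2.52 in mutants, against -3.81, -3.47 and -3.67 in controls. These ratios carry the probe sets' own offsets and have meaning only between arrays. They differed by 1.16 between genotypes with no overlap (exact permutation test, two-sided p = 0.1, which 3 against 3 arrays cannot undercut). Both genes belong to the chosen set, so this value too is a description.

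Of the enzymes that process biliverdin, the product of heme oxygenase, neither passed. Blvrb (Entrez 233016), which reduces biliverdin and flavins, read 8.85, 8.76 and 8.77 in mutants, against 8.32, 8.63 and 8.64 in controls. All mutants were above all controls, with a log2 difference of 0.26 and a 95% interval of 0.06 to 0.47 (limma adjusted p = 0.583). Blvra (Entrez 109778), the main biliverdin reductase of the adult, overlapped between groups at 8.19 to 8.36 in mutants and 8.22 to 8.34 in controls, with a difference of 0.02.

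The entry step of synthesis differed between its paralogs. Alas2 (Entrez 11656), the red-cell form, read 8.91, 8.74 and 8.86 in mutants, against 7.85, 8.15 and 8.40 in controls. All mutants were above all controls, and the controls spread over more than the mutants did (SD 0.27 against 0.09 in mutants). The means of 8.84 in mutants and 8.13 in controls differed by 0.71 ± 0.12 (SE, limma), with a 95% interval of 0.42 to 0.99. This is 1.63-fold, and it did not pass over all genes (limma adjusted p = 0.0795).

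Alas1 (Entrez 11655), the housekeeping form, lay slightly the other way. It read 9.97, 9.99 and 10.07 in mutants, against 10.03, 10.16 and 10.13 in controls. The groups overlapped, and the log2 difference was -0.10 with a 95% interval of -0.25 to 0.05 (limma adjusted p = 1). The log2 ratio of Alas2 to Alas1 within an array was -1.06, -1.25 and -1.21 in mutants, against -2.18, -2.01 and -1.74 in controls. It differed by 0.81 between genotypes with no overlap (exact permutation test, two-sided p = 0.1, again the smallest possible). The interval of Alas1 does not reach the lower bound of the interval of Alas2. Of the letters searched in the 2 promoter windows printed above, TTATCT was in that of Alas2 alone and CGCATGCG in that of Alas1 alone. Both windows held CACCC or its reverse complement. The part of these letters in the difference was not tested.

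The cytosolic enzymes were close to level. Alad (Entrez 17025), which joins aminolevulinate into the first ring, read 11.34, 11.12 and 11.22 in mutants, against 11.11, 11.07 and 11.15 in controls. Mutant replicate 1 was the highest and mutant replicate 2 lay among the controls, and the difference was 0.11 with a 95% interval of -0.05 to 0.28. Uros (Entrez 22276), which closes the large ring, had overlapping groups at 8.57 to 8.76 in mutants and 8.48 to 8.67 in controls, a difference of 0.05 (interval -0.14 to 0.22). The sign of the Uros difference turned when mutant replicate 3 or control replicate 1 was left out, at -0.017 and -0.012. Urod (Entrez 22275), which trims the side chains, had overlapping groups too, at 10.34 to 10.47 in mutants and 10.19 to 10.48 in controls, a difference of 0.08 (interval -0.11 to 0.27). The limma adjusted p of each of these 3 genes was 1.

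The late mitochondrial steps included a gene whose groups did not overlap. Cpox (Entrez 12892), which oxidises coproporphyrinogen, read 8.38, 8.26 and 8.44 in mutants, against 7.96, 8.18 and 8.21 in controls. The lowest mutant was just above the highest control. The difference was 0.24 ± 0.08 (SE, limma) with a 95% interval of 0.06 to 0.43, and it did not pass (limma adjusted p = 0.558). Ppox (Entrez 19044), the enzyme that acts after Cpox, was not in the set and had overlapping groups, at 9.58 to 10.05 in mutants and 9.86 to 10.08 in controls, a difference of -0.16. Fech (Entrez 14151), the ferrochelatase that inserts iron, read 9.02, 8.94 and 8.92 in mutants, against 8.74, 8.92 and 9.07 in controls. The highest and the lowest Fech values were both controls, and the difference was 0.05 (interval -0.15 to 0.25, limma adjusted p = 1), or -0.033 without control replicate 1.

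**Figure D2:**
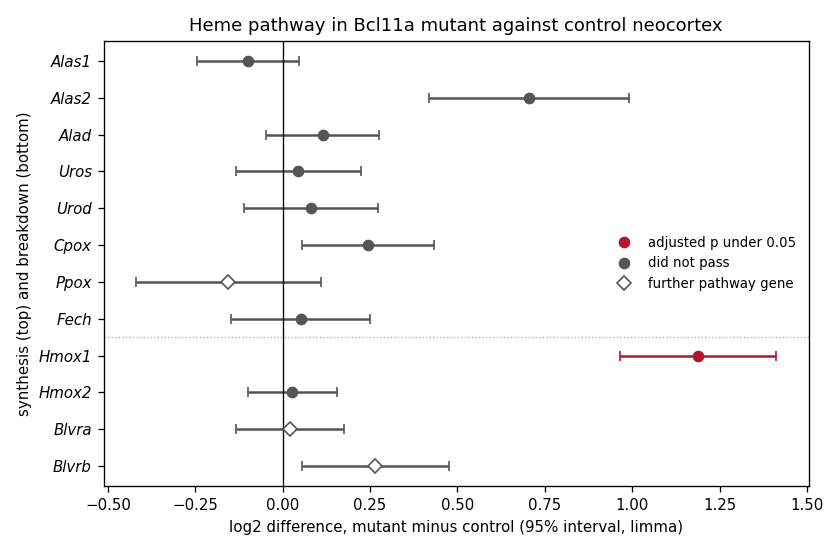
Log2 difference of mutant minus control for the 12 heme pathway genes measured, in pathway order with synthesis above the dotted line and breakdown below, with 95% intervals from limma (3 arrays a group). Filled circles are the 9 genes of the set and open diamonds are Ppox, Blvra and Blvrb. Hmox1, at 1.19, is the 1 gene past the threshold, and the intervals of Alas2, Cpox and Blvrb lie above 0 although their adjusted p did not pass.

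Both genes with large differences kept them when single arrays were left out. Hmox1 lay between 1.10 and 1.29 in the 6 fits that left out 1 array and passed in each (adjusted p up to 0.0202). Alas2 lay between 0.56 without control replicate 1 and 0.84 without control replicate 3, and of these fits it passed in that without control replicate 3 alone (adjusted p = 0.0244). Cpox lay between 0.17 and 0.29 and passed in none. Within female embryos, 1 mutant against 2 controls, Hmox1 differed by 1.28 and the X-linked Alas2 by 0.62. Within male embryos, 2 mutants against 1 control, Hmox1 differed by 0.98 and Alas2 by 0.73, so the sign was the same in each sex for both genes. With the replicate block the adjusted p was 0.0258 for Hmox1 and 0.15 for Alas2.

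**Figure D3:**
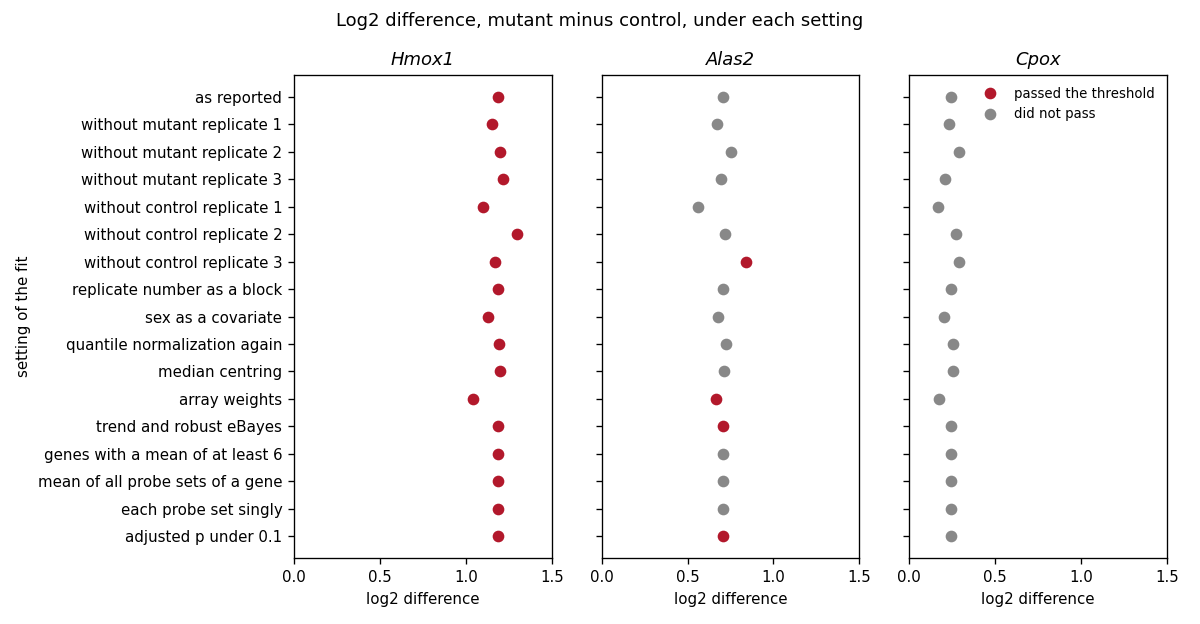
Log2 difference of mutant minus control for Hmox1, Alas2 and Cpox as reported and under 16 other settings of the fit, 1 row a setting. Red points passed the threshold of that setting and grey points did not. Hmox1 passed in all 16, Alas2 in 4 and Cpox in none.

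Some red-cell markers were also higher in the mutants. Of 18 genes listed as erythroid markers 15 were measured, 6 rose, none fell and 14 had a positive difference. The list median was 0.59. Over all genes tested 60.3% had a positive difference and 0.246% rose. This list and those below were drawn up with earlier results of these arrays known, so their counts are descriptions only. The genes that rose were the embryonic globins Hbb-bh1 (5.02) and Hba-x (1.38), the anion exchanger Slc4a1 (1.47), Kel (0.66) and Rhag (0.62), for red-cell surface proteins, and Epb42 (0.55), for a protein of the membrane skeleton. Summed over the 15 genes on the linear scale, the level was 12739 to 14809 in mutants and 5957 to 7310 in controls. The 3 globins Hbb-y, Hba-x and Hbb-bh1 made up most of it, at 10541 to 12432 in mutants and 4613 to 5909 in controls, and the other 12 genes summed to 2159 to 2377 in mutants and 1320 to 1401 in controls. This summed level did not overlap between groups, its part in the Alas2 difference was not tested, and in whole tissue more cells of a type and more RNA per cell cannot be told apart.

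The erythroid markers did not move as a block. Hbb-y, the other embryonic beta-like globin of the list, differed by 0.59, Trim10 by 0.65 and Car2 by 1.24, and none of these passed (limma adjusted p = 0.0729, 0.0585 and 0.0773). Sptb, Epor, Car1 and Hemgn, which also mark the lineage, had differences of 0.00, 0.07, -0.02 and 0.04. Epor, Car1 and Hemgn were dim, with mutant means of 6.8, 6.0 and 6.2, below the median of every array. RMA compresses differences of dim genes, so their small differences say little. Kel, Rhag and Epb42, which rose, were also below these medians. None of the 7 erythroid transcription factors passed by limma, although 2 had an unadjusted p under 0.05, Lmo2 at 0.28 and Tal1 at 0.20. Such a p was found for 6.05% of all genes. All 7 had a positive difference (60.3% of all genes did). In 3 of them all mutants were above all controls (7.69% of all genes did so). Nfe2 differed by 0.17. Gata1, the factor known to drive Alas2 in red cell precursors, read 6.27, 6.19 and 6.29 in mutants, against 6.32, 6.23 and 6.18 in controls. These Gata1 values too lay below the median of every array.

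Markers of macrophages, the cells known for high Hmox1, differed less. Of 15 macrophage and microglia markers all were measured and had a positive difference (60.3% of all genes did). None passed by limma, and 5 had an unadjusted p under 0.05 (6.05% of all genes did). In 6 of the 15, Csf1r and Cx3cr1 among them, all mutants were above all controls (7.69% of all genes did so). The largest differences of the list were Fcrls at 0.45, Mrc1 at 0.45 and C1qb at 0.37, and the list median was 0.21. Csf1r, the receptor that macrophages need to survive, differed by 0.29, with no overlap between groups (limma adjusted p = 0.335), and Cx3cr1, a chemokine receptor of microglia, by 0.21 (adjusted p = 0.689). Their summed linear level was 2565 to 2876 in mutants and 2136 to 2370 in controls, which did not overlap. Mrc1, a marker of border macrophages, read 6.83 in mutant replicate 1, against 5.72 and 5.71 in the other mutants and 5.47 to 5.74 in the controls, and differed by 0.08 without that array. The part of these cells in the Hmox1 difference was not tested.

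Pericyte, meningeal and endothelial markers did not pass either. None of 10 pericyte and meninges markers passed by limma. An unadjusted p under 0.05 was found for 4 of them and for 6.05% of all genes. The largest differences were Dcn at 2.09, Lum at 0.91 and Ogn at 0.51. Without mutant replicate 1 these differences were 1.19, 0.19 and 0.10. Of the 10 markers 9 had a positive difference (60.3% of all genes did). In 4 of them all mutants were above all controls (7.69% of all genes did so), namely Dcn, Lum, Col1a2 at 0.49 and Col1a1 at 0.38. None of 8 endothelial markers passed by limma (1 at an unadjusted p under 0.05) and all 8 had a positive difference, with Tek at 0.32, Kdr at 0.23 and Esam at 0.21. The summed linear levels were 2044 to 3855 in mutants and 1807 to 1893 in controls for the pericyte and meninges list, and 2937 to 3954 in mutants and 2851 to 3265 in controls for the endothelial list. Without mutant replicate 1, the array with the highest Dcn, Hmox1 differed by 1.15 and Alas2 by 0.67, but Dcn was also above the controls in the other mutants, and the part of these cells in either difference was not tested.

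No known regulator of Hmox1 on the list passed. None of 13 heme sensing and regulatory genes passed by limma, and 2 had an unadjusted p under 0.05 (6.05% of all genes did). Nfe2l2, which encodes Nrf2, read 9.82, 9.77 and 9.82 in mutants, against 9.11, 9.53 and 9.60 in controls, a difference of 0.39 with no overlap that did not pass (limma adjusted p = 0.457). Nr1d1, a heme-binding nuclear receptor of the clock, differed by -0.21 (adjusted p = 0.409) and Ppargc1a, a coactivator of mitochondrial genes and of Alas1, by -0.11. Bach1 read 10.49, 10.51 and 10.52 in mutants, against 10.38, 10.46 and 10.43 in controls, a difference of 0.09.

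Among other genes of the pathways that induce Hmox1, 1 passed. None of 11 measured targets of Nrf2 and Bach1 passed by limma and 1 had an unadjusted p under 0.05 (6.05% of all genes did). Slc7a11, a cystine transporter gene, had the largest difference, 0.44, but read 6.40 in mutant replicate 1, against 5.23 and 5.28 in the other mutants and 5.16 to 5.25 in the controls, and differed by 0.06 without that array. Srxn1, which restores oxidised peroxiredoxins, differed by 0.21, Gclm, for glutathione synthesis, by 0.12, and Nqo1, a classical Nrf2 target, by 0.04. Of 15 hypoxia targets 1 rose (0.246% of all genes did), Egln3, a prolyl hydroxylase gene, at 0.95 (limma adjusted p = 0.0136). Bnip3 differed by 0.20, P4ha1 by 0.16 and Vegfa by -0.01. None of 7 heat shock and stress genes passed by limma or had an unadjusted p under 0.05, with Hspa1a at 0.16, Atf3 at 0.09 and Dnajb1 at 0.05.

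No gene of the lists for heme transport, iron supply and heme-using proteins passed. The last of these lists holds none of the embryonic globins, which also carry heme and are given above with the erythroid markers. None of 21 genes for transport of heme and its precursors passed by limma, and 3 had an unadjusted p under 0.05. The largest differences were Flvcr2, a relative of the heme exporter gene Flvcr1, at 0.27, Hebp1, a heme-binding protein gene, at -0.24, and Slc25a37, the mitochondrial iron importer of red cell precursors, at 0.20. None of 11 genes of iron supply and iron-sulfur assembly passed (1 at an unadjusted p under 0.05), with Slc40a1, the iron exporter ferroportin, at 0.26, Nfs1, a cysteine desulfurase, at -0.20 and Tfrc, the transferrin receptor, at -0.17. None of 15 genes for heme-using proteins passed (2 at an unadjusted p under 0.05), with Cyp51, of sterol synthesis, at -0.30, Cygb, or cytoglobin, at -0.27 and Sdhc, of respiratory complex II, at 0.13. The medians of these 3 lists were 0.05, 0.01 and 0.02, beside 0.02 for all genes tested, of which 6.05% had an unadjusted p under 0.05.

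**Figure D4:**
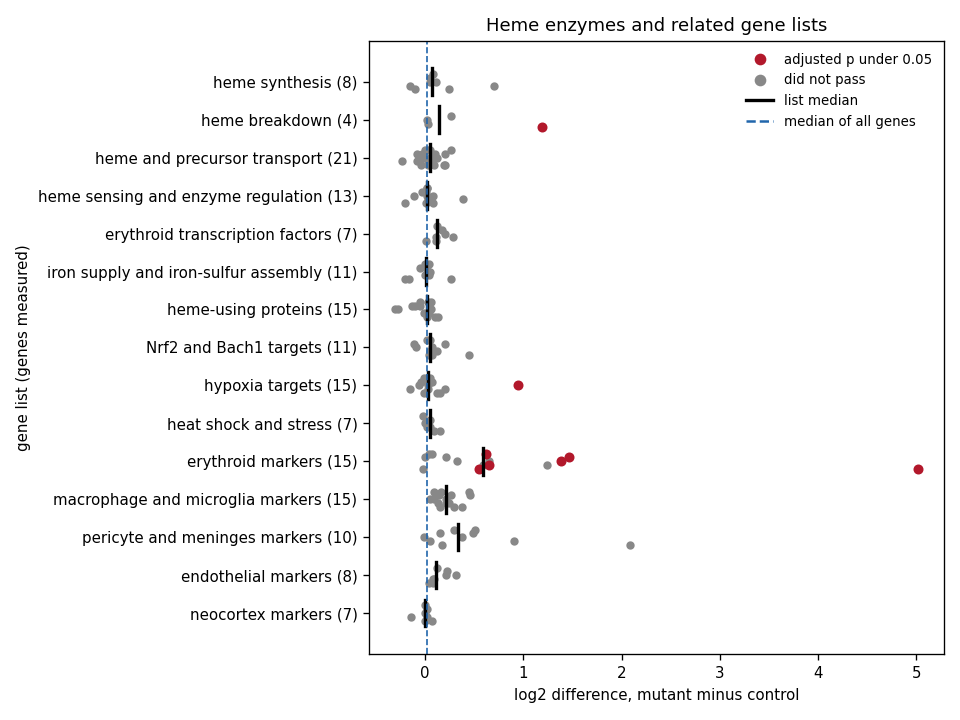
Log2 difference of mutant minus control for each measured gene of 15 lists, with the number of genes measured beside each list name. Red points passed the threshold, black bars are list medians, and the dashed line is the median of all genes tested, 0.02. The erythroid list has a median of 0.59 and holds 6 red points, whereas Hmox1 and Egln3 are the single red points of their lists.

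The genes whose values over the 6 arrays lay nearest to those of Hmox1 and Alas2 were also identified. Likeness was the mean absolute difference between log2 values centred on each gene's mean over the 6 arrays, so it favours genes with a genotype difference of the same size. For Hmox1 the 5 nearest genes were Fgfbp3, which encodes a growth factor carrier (0.09), Gdpd2, a phosphodiesterase (0.12), Sema3c, the semaphorin named in the study's title (0.13), Egln3 (0.14) and Tent5c, a poly(A) polymerase (0.15). For Alas2 they were Rel, a subunit of NF-kappa-B (0.04), C530005A16Rik (0.06), Fndc3c1 (0.07), Lipo3 (0.07) and Plcd1, a phospholipase C (0.08). None of the 15 erythroid markers measured was among these 10 genes. Only the 5 nearest of all genes tested were taken for each, and a marker with a difference of another size is passed over. This absence therefore says nothing about a link of Hmox1 or Alas2 with the erythroid markers, which was not tested.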

How the data were processed

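The values are log2 expression values deposited by the authors, made with Affymetrix Expression Console and RMA per the submitters' processing notes. The sources used here give no versions, RMA settings or genome build. RMA compresses differences of dim genes, and its quantile step hides a shift of most genes to 1 side. Of 35556 probe sets, 21789 had 1 symbol in GEO's platform annotation, 1621 several and 12146 none listed. Those with 1 symbol gave 19938 genes (999 with several probe sets, the brightest used).

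Mutants were compared with controls by lmFit and eBayes in limma 3.58.1 (R 4.3.3) on 6 arrays with no covariate. Adjusted p-values are Benjamini-Hochberg values over all 19938 genes, two-sided, with a threshold of 0.05. The method was tested on simulated data. For arrays the number of samples, not a read depth, limits precision. The gene set, the lists and the alternatives were chosen with earlier results of these data known. Named were Bcl11a, Sema3c, the 9 genes, other probe sets of heme enzymes, and per list the genes past the threshold and the 3 with the largest difference. Named outside this rule, with values already seen, were Hbb-y, Trim10, Car2, Sptb, Epor, Car1, Hemgn, Gata1, Bach1, Csf1r, Cx3cr1, Col1a1, Col1a2, Nqo1 and Vegfa. For Hmox1 and Alas2 the 5 genes of nearest profile were named too. After subtraction of the group means, the same-numbered mutant and control arrays correlated at 0.03, -0.14 and 0.08 across genes, so the replicate numbers were not taken to pair the embryos. Promoter windows came from RefSeq on GRCm38.p6.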

Additional observations from a re-analysis of the deposited data

How the results depend on the processing

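Each result was recomputed under 16 other settings, and the within-sex differences and a count at an unadjusted p were added after seeing the data. Hmox1 passed in all 16 settings, with log2 differences of 1.04 to 1.29 and adjusted p of 0.000437 to 0.0258. The number of the 9 genes called was 1, and it was 2 (Hmox1 and Alas2) with array weights, with trend and robust eBayes and when an adjusted p of 0.1 was allowed, and 3 with no adjustment of p. It was 1 to 2 when 1 array was left out, 2 without control replicate 3. Alas2 had an adjusted p of 0.00914 with array weights and 0.0398 with trend and robust eBayes, and of up to 0.345 elsewhere, with log2 differences of 0.56 to 0.84. The number of all genes called was 57, and 20 to 50 when 1 array was left out, which leaves fewer arrays in the fit: 20 without mutant replicate 2 or control replicate 2, 25 without mutant replicate 1 and 33 without mutant replicate 3. It was 34 with the replicate block, 24 with sex as a covariate, 217 with array weights, 87 with trend and robust eBayes and 107 when an adjusted p of 0.1 was allowed, and the cause was not tested. The replicate block changed no call among the 9 genes. The direction turned only for values that did not pass. With 1 array left out, Uros lay between -0.017 (without mutant replicate 3) and 0.08, with -0.012 without control replicate 1, and Fech between -0.033 (without control replicate 1) and 0.132. Within female embryos Alad, Urod and Uros differed by -0.015, -0.052 and -0.001, and within male embryos Hmox2 by -0.015. Median centring and repeated quantile normalization put the median difference over all genes at 0.03 and 0.02. When 1 array was left out, the Alas2 to Alas1 ratio differed by 0.70 to 0.93 and the Hmox1 to Hmox2 ratio by 1.08 to 1.25. These moves were within the SD pooled over both groups (0.173 and 0.125), but some exceeded the SD of the mutants alone (0.098 and 0.052).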
